A study of Mus musculus with 2 samples.

Results

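The genes described here are 36 members of glycolysis and of the response to low oxygen, chosen by name: glucose and lactate carriers, glycolytic enzymes and their regulators, the hypoxia factor gene Hif1a, its prolyl hydroxylases and genes that it is known to induce. The reported miR-122 targets Aldoa, Pkm and P4ha1 were left out of the list and are given separately. All 36 members were found among the 20659 named genes of the array, through 60 probes, and all 36 were well above background on both arrays, as were 15022 named genes in all. Expression was measured in RAW246.1 cells, labelled as macrophages and grown in DMEM medium, on 2 one-colour Agilent arrays, 1 for a culture given PBS and 1 for a culture given synthetic miR-122 at 5 μg/mL. miR-122 is a microRNA made mainly in hepatocytes, and the study asked how it bears on macrophage inflammatory activation. The time of treatment and the means of delivery are not given in the sources used here.

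Each group held 1 array, so no difference below has a replicate check, a test or a spread between cultures. The treatment text of the labels is the same for both samples, and the title of the miR-122 sample reads as though the microRNA were absent; groups follow the source names, and directions rest on them. Both arrays lay on the same slide and were scanned on the same date, so the place on the slide and the treatment cannot be told apart. In such bulk RNA, fewer cells of a type and less RNA per cell cannot be told apart. Cultured cells of a line given a synthetic microRNA are a limited model of alveolar macrophages. Of 12 macrophage markers, 10 were well above background on both arrays, among them Csf1r, Adgre1, Cd14 and Ptprc; Mertk was not, and Cd68 had no named probe. The hepatocyte marker Alb, the B cell marker Ms4a1 and the endothelial marker Tek were not well above background on either array.

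Glycolysis splits glucose into pyruvate and yields ATP without oxygen. Macrophages that are activated by inflammatory signals commonly raise glucose uptake and lactate release, and the transcription factor HIF-1, whose alpha subunit is encoded by Hif1a, drives many of the genes involved. With oxygen present, prolyl hydroxylases encoded by the Egln genes mark the alpha subunit for destruction. HIF-1 binds hypoxia response elements, whose core is an A or G followed by CGTG. Several Egln genes are themselves HIF targets, so the pathway holds a feedback loop.

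The letters of that core were looked for in RefSeq promoter windows (GRCm38.p6) running from 250 bases before to 50 bases after each transcript start. The letters searched were ACGTG and GCGTG on either strand, which read CACGT and CACGC on the other strand; CACGTG, an E-box, holds ACGTG on both strands. Windows were matched for 33 members, with 48 windows, as a gene can have several starts. At least 1 match lay in a window of 30 of the 33 members, or 90.9%, against 60.5% of the 11983 genes compared on both arrays that have a window and 46.7% of all 27025 genes in the table. By window, 79.2% of the members' windows held a match, against 56.1% of the 14988 windows of compared genes and 43.8% of all 32851 windows. ACGTG alone was in 52.1% of the members' windows, 23.4% of those of compared genes and 19.6% of all. CACGTG was in 10.4%, 9.07% and 7.15%, so the members' share was close to that of the compared genes. The letters contain CpG, and CpG was more frequent near the members, with a median of 20 per window against 17 for the compared genes and 7 for all windows. A match is a description of the sequence and not a measured site. Stretches of 30 bases lying before the start are shown, each chosen to hold a match. They cover 4 of the 5 members with the lowest differences, and members that differed little or were higher. Capitals mark the matched letters, and each stretch is read along the strand of its gene.
Egln3, chr12:54204086-54204115, minus strand: tgtgcatctcagACGTGagatccaggtttt
P4ha2, chr11:54100843-54100872, plus strand: catACGTGcagcGCGTGgcggctcgggcct
Ero1l, chr14:45318618-45318647, minus strand: cgcgcgccgctgCACGTccgcaggggaggc
Pdk1, chr2:71873134-71873163, plus strand: ccgcctacatggGCGTGtctttaaccaggg
Slc2a1, chr4:119108697-119108726, plus strand: gtcccgccccggACGTGctccccaggcccc
Hk3, chr13:55021524-55021553, minus strand: actacattttgaCACGTtgcctagttcaac
Pgk1, chrX:106186957-106186986, plus strand: aaatggaagtagCACGTctcactagtctcg
Ldha, chr7:46845758-46845787, plus strand: cgtgggttcccgCACGTccgctgggctccc
Slc16a3, chr11:120949037-120949066, plus strand: gtgACGTGcgcgggggACGTGccgcgcgac
Bnip3, chr7:138909524-138909553, minus strand: ggctccgccgccGCGTGcgtcccgccccgc
Car9, chr4:43506996-43507025, plus strand: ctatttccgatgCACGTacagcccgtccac
Pfkfb3, chr2:11502125-11502154, minus strand: acccttctctcCACGTGaaagggggctggg
In Pfkfb3 the match was the palindrome CACGTG. The windows of Gpi1, Tpi1 and Eno2, by contrast, held none of these letters, and Slc2a3, Bnip3l and Ndrg1 had no window in the table.

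The glycolysis and hypoxia genes differed little between the arrays. No member was 2-fold higher or lower on the miR-122 array, where 4.57% of the 15022 genes passed 2-fold upward and 1.78% passed it downward. That the members lay within 2-fold was known from earlier results of these data, so this count is a description and no test. The size of 1.5-fold was added for that reason. At a size of 1.5-fold, 5 members were lower, 13.9% of them against 5.99% of all genes, and 0 were higher against 12.1% of all genes. The 5 lower genes were Egln3, Slc2a3, Ero1l, P4ha2 and Pdk1. With dim probes left out, 32 members and 8070 genes remained; 4 members were lower by 1.5-fold against 6.75% of those genes, and 0 were higher against 10.4%. No member passed 2-fold there either, against 5.02% of genes upward and 1.92% downward. The median log2 difference, miR-122 minus PBS, was 0.06 over the members and 0.09 over all genes, and the members' median turned negative with loess, with quantile normalization, with the authors' values and with scaling on the median. Scaling each array on its median in place of the 75th percentile lowered every difference by the same step, from a median of 0.09 to -0.08 over all genes. The middle 50 percent of members lay between -0.23 and 0.18, and that of all genes between -0.16 and 0.34. The members' 95th percentile was 0.36, against 0.96 for all genes, while the 5th percentiles were both -0.64. Within 1.25-fold were 26 members, 72.2%, against 59.2% of all genes.

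**Figure D1:**
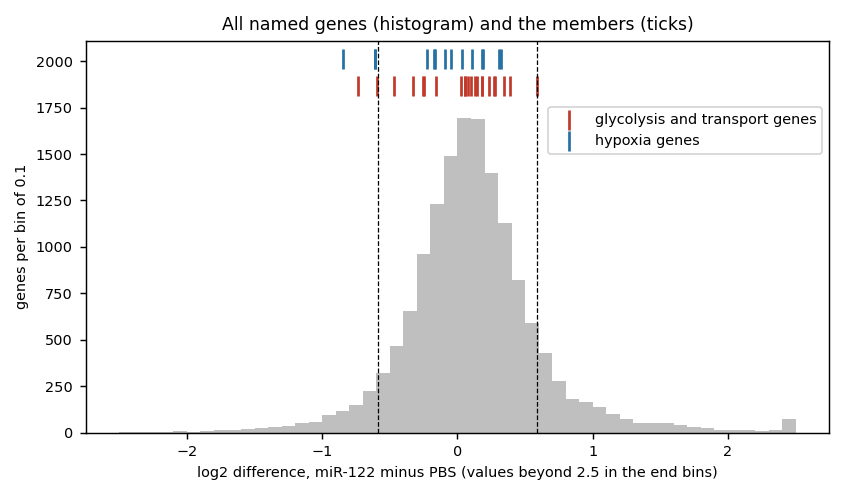
Histogram of the log2 difference, miR-122 minus PBS, over 15022 named genes (bins of 0.1; values beyond 2.5 are in the end bins), with ticks for the glycolysis and transport members (red) and the hypoxia members (blue), and dashed lines at 1.5-fold. No tick lies above the upper dashed line and 5 lie below the lower line.

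A level is the log2 signal of a probe minus the 75th percentile of its array, so 0 is that percentile, and it is compared only with that of the same probe on the other array. The spots of 269 probes printed repeatedly had a median standard deviation of 0.05 (PBS) and 0.06 (miR-122). The error that the scanner software assigns to a spot gave an error of the difference of 0.20 (log2) for the median member, and up to 0.39 for the dimmest. Different probes of the same gene gave differences with a pooled standard deviation of 0.30. An absolute difference above 0.30 was found for 12 of the 36 members. The same count was not made over all genes. The 75th percentile of the differences was 0.34 over all genes, itself above 0.30, and 0.18 over the members. The 25th percentiles were -0.16 and -0.23. The count of 12 is therefore not read as an excess over the arrays as a whole. These values describe the arrays and not the spread between cultures.

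**Figure D2:**
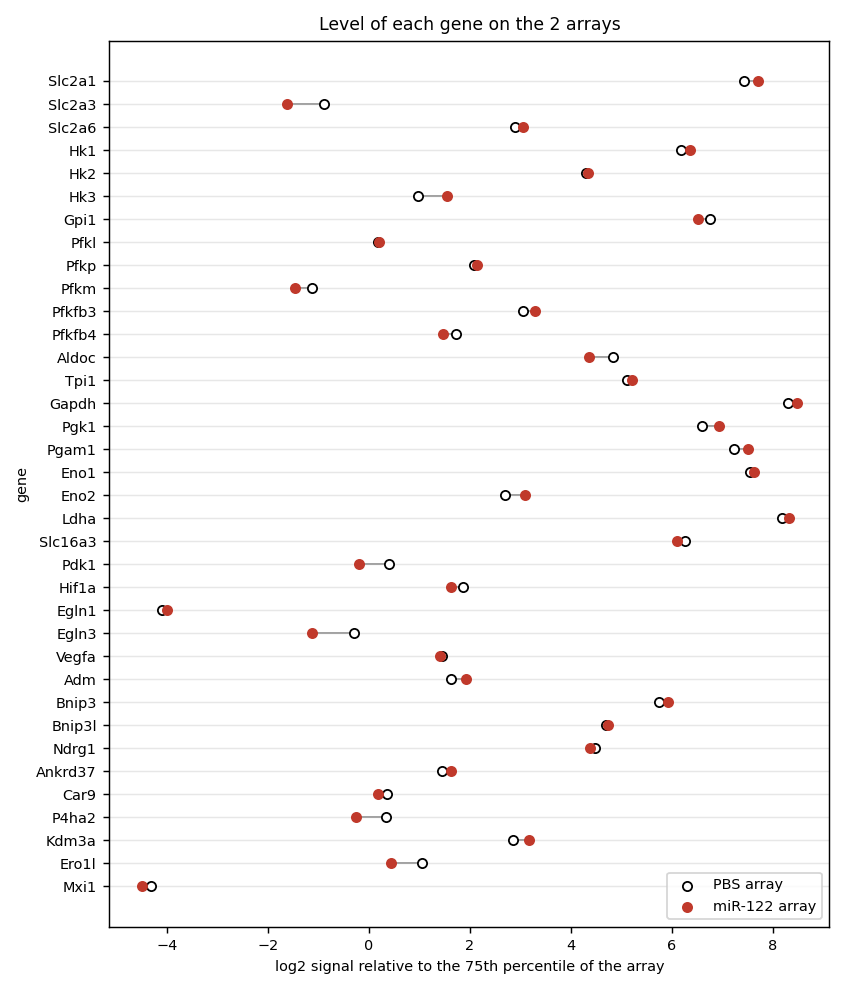
Level of each of the 36 genes (log2 signal relative to the array's 75th percentile) for PBS (open circles) and miR-122 (red circles), 1 array each. The circles nearly coincide for most enzymes, while the red circle lies clearly to the left for Slc2a3, Egln3, Ero1l, P4ha2 and Pdk1.

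Glucose enters macrophages mainly through GLUT1, which Slc2a1 encodes. Its level was 7.43 with PBS and 7.71 with miR-122, a difference of 0.27 that became 0.00 with quantile normalization. Slc2a3, the gene of the high-affinity transporter GLUT3, went from -0.89 with PBS to -1.63 with miR-122 and was 1.67-fold lower. With normexp background correction, which weighs on dim probes, the difference was -0.46. Slc2a6 encodes GLUT6, a hexose transporter found on lysosomes, and had levels of 2.90 and 3.05, with differences of 0.15 and 0.10 from its 2 probes; its sign turned with median scaling. Under the scaling used Slc2a3 was thus lower. The Slc2a1 difference was smaller than the standard deviation of 0.30 between probes of a gene, so no direction is read from it.

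Hexokinases trap glucose in the cell as glucose 6-phosphate. Hk1, the broadly expressed form, had levels of 6.18 with PBS and 6.36 with miR-122. Hk2, the form that is induced by HIF-1, had 4.30 and 4.35. Their differences of 0.18 and 0.05 changed sign under other scalings. Hk3, a form of myeloid cells, had levels of 0.97 and 1.55, a difference of 0.58 that lay just short of 1.5-fold and was the highest of the 36 members. Its difference stayed positive in all 12 ways of processing tried, between 0.41 and 0.59, and passed 1.5-fold only with loess. No other member came closer to 1.5-fold higher, and Hk3 stood at percentile 87.9 of all genes.

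At the hexose phosphate steps, Gpi1, which encodes the glucose 6-phosphate isomerase, was slightly lower on the miR-122 array by each of its 3 probes, whose differences ran from -0.25 to -0.05. The phosphofructokinase subunit genes gave small differences. Pfkl, the liver form, had levels of 0.18 and 0.20, and Pfkm, the muscle form, had -1.14 and -1.46, a difference of -0.33. The probe of Pfkm is printed 10 times, and the spots had standard deviations of 0.04 (PBS) and 0.08 (miR-122), so this difference exceeded the spread between spots. For Pfkp, the platelet form, the brightest probe had levels of 2.07 and 2.13, while a second, dim probe had -3.70 and -4.40 and a difference of -0.70. The enzymes of the Pfkfb genes make or remove fructose 2,6-bisphosphate, the activator of phosphofructokinase. Pfkfb3 had levels of 3.06 and 3.29, a difference of 0.23, and a dimmer probe gave 0.53; the difference stayed positive in all 12 settings. Pfkfb4 had levels of 1.72 and 1.47, a difference of -0.25 that stayed negative in all 12.

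Among the triose genes, Aldoc, an aldolase form best known from brain, had levels of 4.83 with PBS and 4.36 with miR-122, 1.38-fold lower. It passed 1.5-fold lower in 3 of the 12 settings. Tpi1, the triose phosphate isomerase gene, had levels of 5.12 and 5.22. Gapdh, often used as a reference gene, had levels of 8.30 and 8.48, and its 7 probes gave differences from 0.03 to 0.21. The signs of Tpi1 and Gapdh turned with median scaling or quantile normalization.

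Lower glycolysis makes pyruvate and ATP, and its 4 genes all had positive differences under the scaling used. Pgk1, the phosphoglycerate kinase gene and a classical HIF target, had levels of 6.60 and 6.95, a difference of 0.35. Pgam1, the phosphoglycerate mutase gene, had 7.23 and 7.51, a difference of 0.28. Both stayed positive in all 12 settings, with lowest values of 0.13 and 0.06. The enolase genes Eno1 and Eno2 differed by 0.07 and 0.39, and Eno1 turned negative with median scaling, quantile normalization, loess and the authors' values. Eno2, the neuronal form, had levels of 2.69 and 3.08 and stayed positive throughout. None of the 4 reached 1.5-fold.

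The fate of pyruvate is set by lactate dehydrogenase and by entry into mitochondria. Ldha, which encodes the lactate dehydrogenase A subunit, had levels of 8.20 and 8.33, with differences of 0.13, 0.12 and -0.06 from its 3 probes. Slc16a3, the gene of the lactate exporter MCT4, had levels of 6.27 and 6.12, with differences of -0.16 and -0.18 from its 2 probes, negative in all 12 settings. Pdk1 encodes a kinase that inhibits pyruvate dehydrogenase and so keeps pyruvate out of mitochondria. Its level was 0.39 with PBS and -0.20 with miR-122, which is 1.51-fold lower, and it stayed at least 1.5-fold lower in 11 of 12 settings; normexp gave -0.49. Under the reported scaling Ldha and Slc16a3 lay within 1.25-fold; Slc16a3 reached -0.33 with median scaling, which is past it.

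**Figure D3:**
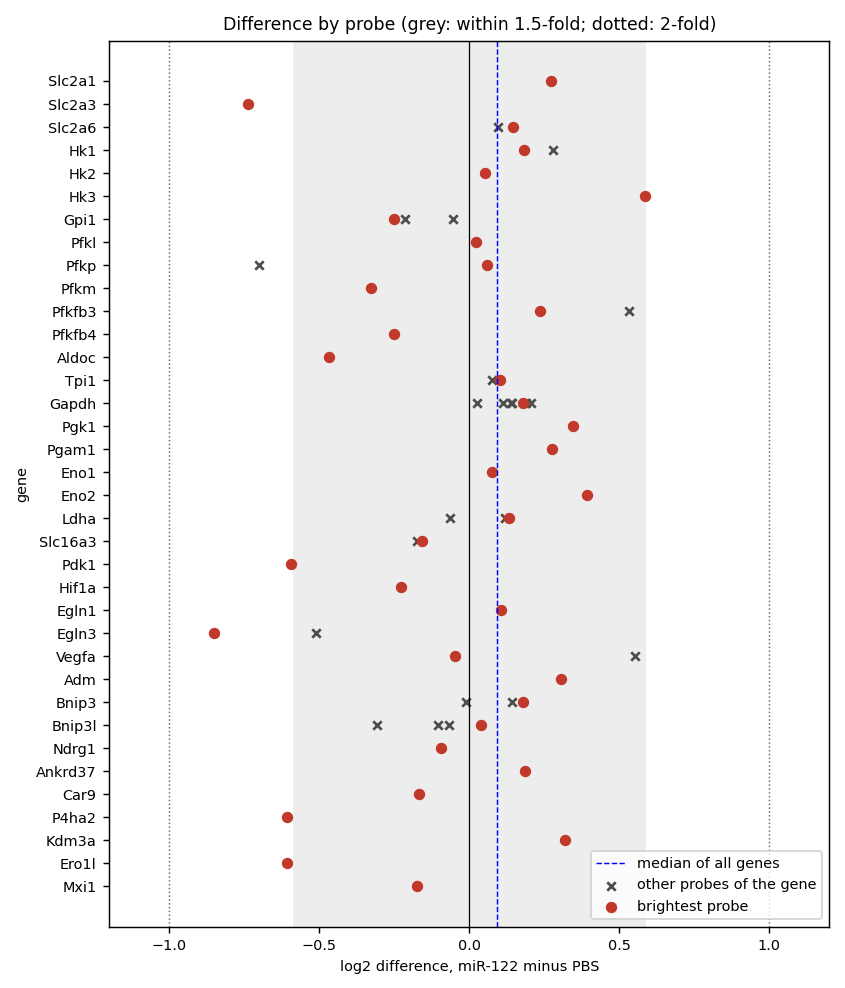
Log2 difference, miR-122 minus PBS, of each probe well above background on both arrays, with the brightest probe of a gene in red and its other probes as crosses; grey marks less than 1.5-fold, dotted lines mark 2-fold and the blue dashed line is the median of all genes, 0.09. In 5 genes the brightest probe lies left of the grey band, and the probes of Pfkp and Vegfa lie far apart.

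Hif1a, the alpha subunit gene of HIF-1, had levels of 1.86 with PBS and 1.64 with miR-122, a difference of -0.23 that was negative in all 12 settings, between -0.40 and -0.21. Its RNA level does not measure the protein, which is controlled largely by its destruction. Egln1 encodes PHD2, the main oxygen sensor for the alpha subunit, and was dim, at -4.11 and -4.00, with a scanner error of 0.31 on its difference of 0.11; the sign turned under other scalings. Egln3 encodes PHD3, a prolyl hydroxylase strongly induced by hypoxia. Its level was -0.29 with PBS and -1.14 with miR-122, which is 1.80-fold lower and the lowest difference of the 36 members, and it stood at percentile 2.86 of all genes. Its second probe had levels of -1.56 and -2.07, a difference of -0.51, so the probes gave the same direction and different sizes. With median scaling Egln3 reached -1.03 and was the only member past 2-fold in any setting.

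Of the 11 members listed as hypoxia-inducible targets, P4ha2 and Ero1l had the lowest differences. P4ha2, which encodes an alpha subunit of the collagen prolyl hydroxylase, had levels of 0.34 with PBS and -0.27 with miR-122, 1.52-fold lower. It was the only member at least 1.5-fold lower in all 12 settings, though by little with normexp, at -0.59. P4ha2 had 1 probe, so the settings that filter dim signal or choose between probes could not change its value. Ero1l, now named Ero1a, encodes an oxidase that forms disulfide bonds in the endoplasmic reticulum; its level was 1.05 and 0.44, 1.53-fold lower, and -0.46 with normexp. P4ha1, the other collagen prolyl hydroxylase alpha subunit gene, which the list leaves out, had levels of -0.76 and -0.38, a difference of 0.38 that was positive in all 12 settings.

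The other HIF targets among the members lay closer to the median of all genes. Vegfa, the gene of an angiogenic growth factor, had levels of 1.45 and 1.40 by its brightest probe and -0.77 and -0.22 by another, so the probes gave -0.05 and 0.55. Adm, which encodes the vasodilator peptide adrenomedullin, had levels of 1.62 and 1.93, and Kdm3a, a histone demethylase gene, had 2.85 and 3.17. Both stayed positive in all 12 settings, from differences of 0.31 and 0.32. The mitophagy genes Bnip3 and Bnip3l had levels of 5.75 and 5.93, and of 4.70 and 4.74. Their probes did not share a sign: the 3 of Bnip3 gave -0.01 to 0.18 and the 4 of Bnip3l gave -0.31 to 0.04. Ankrd37, a HIF target encoding an ankyrin repeat protein, differed by 0.19, or 0.01 with median scaling. Car9, the gene of a surface carbonic anhydrase that serves as a hypoxia marker, had levels of 0.35 and 0.18, and Ndrg1, a stress-responsive gene, had 4.48 and 4.39; their differences of -0.17 and -0.09 were negative in all 12. Mxi1, which encodes an antagonist of Myc, was dim at -4.32 and -4.50, and its sign turned with normexp.

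Over the 36 members, 21 differences were positive and 15 negative under the scaling used, against 60.3% positive and 39.7% negative over all genes. Over the settings run for each member, 8 kept a positive difference, 13 kept a negative difference, and 15 changed sign or reached 0. The same counts were not made over all genes. The median of all genes, 0.09, was -0.08 with median scaling, -0.03 with quantile normalization and 0.11 with normexp. Under the lower scalings a negative sign is easier to keep than a positive one. The counts therefore cannot be read as a lean of the members. Of the 12 settings, 32 members had all; Slc2a3, Pfkm, Egln1 and Mxi1 had 11, since their probes were left out as dim in the remaining setting. The 5 lower genes all kept their sign. On both arrays, 23 members had 1 probe. For them, filters on dim signal and choices between probes could only leave the difference as it was or drop the gene. Those settings are therefore no check on these members. The 22 carriers and glycolytic genes included 2 of the 5 and had a median difference of 0.09; the 14 hypoxia genes included 3 and had a median of -0.07. The difference between these medians is a description of 2 arrays. The promoter stretches shown above were each chosen to hold a match. The letters therefore stand beside Egln3 and P4ha2, which were lower, and beside Slc2a1 and Pgk1, which were not. Whether a match goes with a direction was not tested.

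**Figure D4:**
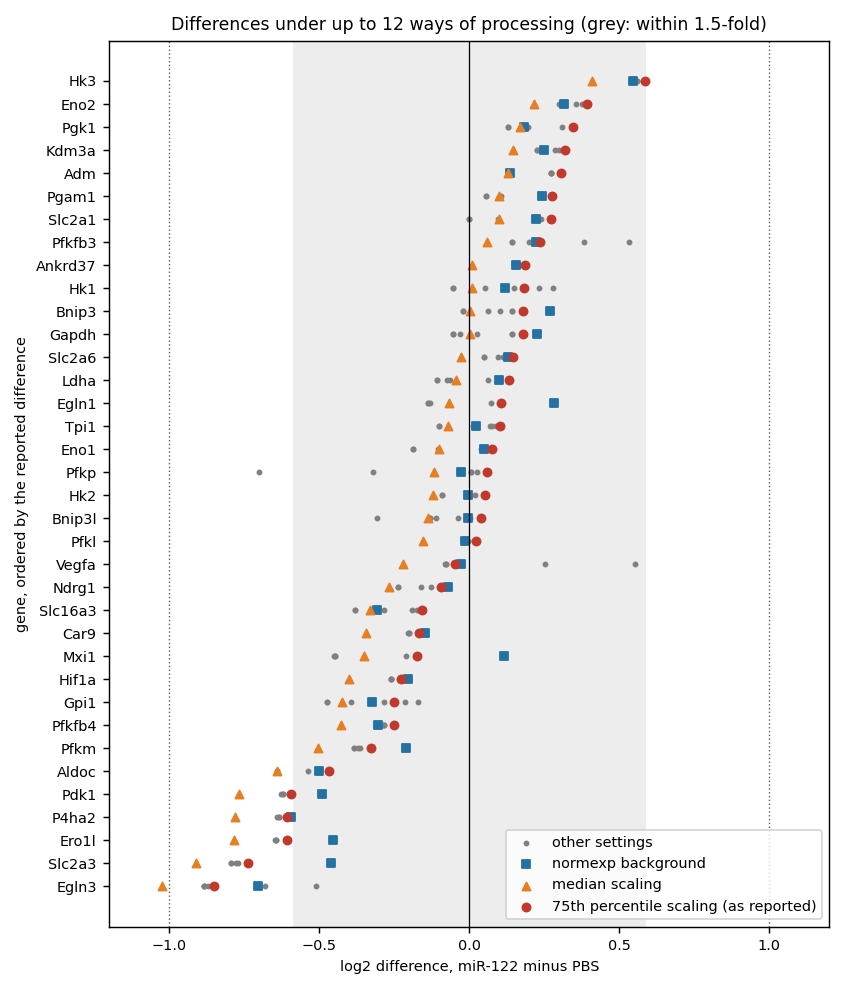
Log2 difference, miR-122 minus PBS, of each gene under 12 ways of processing (11 for Slc2a3, Pfkm, Egln1 and Mxi1), ordered by the reported value (red circles), with normexp background correction (blue squares), median scaling (orange triangles) and the other settings (grey dots); the grey band marks less than 1.5-fold and dotted lines 2-fold. Only Egln3 crosses a dotted line, with median scaling at -1.03, and P4ha2 alone has all its points left of the band.

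The enzymes that the list left out because they are reported miR-122 targets differed little. Aldoa, the main aldolase gene, had levels of 6.83 and 6.98, and Pkm, the pyruvate kinase gene of most tissues, had 5.03 and 5.17, with differences of 0.15 and 0.14 that changed sign under other scalings. In a list of 29 other glycolytic genes, 24 were measured on both arrays, with a median of 0.00. Of these, 1 passed 1.5-fold upward and 1 downward, 4.17% each, against 12.1% and 5.99% of all genes. The higher gene was Gapdhs, the sperm form of the Gapdh enzyme, dim at -4.61 and -3.94, and the lower was Adpgk, an ADP-dependent glucokinase gene with a difference of -0.60. Neither call held with normexp, at 0.38 and -0.53, and Gapdhs was under 1.5-fold in 5 of 11 settings. Pgam5 and Pfkfb2 followed, with differences of -0.58 and -0.58; Pfkfb2 was at -0.21 with normexp. Among 9 other carriers of glucose and monocarboxylates on both arrays, Slc16a6 and Slc2a8 were at least 1.5-fold lower, 22.2% against 5.99% of all genes. Their differences were -0.78 and -0.74, while Slc16a1 and Slc16a7 differed by 0.23 and 0.20. Another, dimmer probe of Slc16a6 gave 0.057. In the pyruvate dehydrogenase list 0 of 10 genes passed 1.5-fold, where 12.1% of all genes passed it upward and 5.99% downward. The largest differences were 0.38 for Pdk2, -0.37 for Pdp2, -0.36 for Pdhx and 0.23 for Pdhb. Pdk2 was dim, at -4.56 and -4.17, and differed by 0.24 with normexp. The direction of Pdp2 rested on its probe, as its dimmest probe gave 0.59 and the mean of its probes 0.11.

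The remaining HIF genes differed in both directions. Of 16 subunits, sensors and cofactors of the HIF pathway on both arrays, 0 passed 1.5-fold, against 12.1% of all genes upward and 5.99% downward. Of these 16, 14 were positive and 2 negative under the reported scaling, where 60.3% of all genes were positive. Their median was 0.19, against 0.09 over all genes. The count of positive genes depends on the scaling. With median scaling Crebbp, Elob, Vhl, Rbx1 and Hsp90aa1 turned negative too, at -0.05, -0.15, -0.15, -0.16 and -0.16. Cited2, which encodes a competitor of HIF-1 for its coactivator and is itself a HIF target, had levels of 5.43 and 5.93, a difference of 0.50 that became -0.02 with normexp. Hif1an, Arntl and Ep300 differed by 0.48, 0.37 and 0.32. Hif1an was dim, at -4.41 and -3.94, and differed by 0.30 with normexp. The 44 other HIF targets measured on both arrays had a median of 0.07, with 5 past 1.5-fold upward, 11.4% against 12.1% of all genes, and 4 downward, 9.09% against 5.99%. The upward share was thus near that of all genes. Nos2, the inducible nitric oxide synthase gene, which inflammatory signals also induce, had levels of 4.75 and 6.56, 3.51-fold higher. Sap30, a gene of a histone deacetylase complex, was 1.79-fold higher. Ddit4, Hilpda and Wsb1, singled out only once their values were known, were higher too, with differences of 0.83, 0.76 and 0.63; with median scaling Hilpda and Wsb1 were at 0.58 and 0.46, under 1.5-fold. Car12, a carbonic anhydrase gene like Car9, had levels of 2.29 and 0.78, 2.85-fold lower, and Angptl4, the gene of a lipoprotein lipase inhibitor, had -1.28 and -2.54, 2.39-fold lower, or -0.73 on the log2 scale with normexp. Also lower were the glycogen branching enzyme gene Gbe1, at -0.78, and Tfrc, the transferrin receptor gene, at -0.67, which was likewise chosen with its value known and passed 1.5-fold in 11 of 12 settings. Lox was dim, at -5.43 with PBS and -4.14 with miR-122, and well above background on the miR-122 array only. There it was 2.22-fold above the lowest level well above background on the PBS array. The similarly dim members Egln1 and Mxi1 had scanner errors of 0.31 and 0.39 on their differences, so this bound is uncertain.

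Metabolic lists next to glycolysis had medians somewhat below that of all genes. The 12 measured genes of the pentose phosphate pathway had a median of -0.20. Of them 0 passed 1.5-fold, against 12.1% of all genes upward and 5.99% downward. Prps2, Prps1, H6pd and Rpe had the largest differences, at -0.49, -0.46, -0.40 and 0.26. Prps2 was dim, at -2.15 and -2.63. It differed by -0.15 with normexp and was at least 1.5-fold lower in 4 of 11 settings. The 22 genes of the citric acid cycle had a median of -0.15, and 15 were negative, where 39.7% of all genes were. The exception in size was Acod1, whose enzyme takes cis-aconitate from the cycle to make itaconate; it had levels of 6.63 and 7.72, 2.13-fold higher, and passed 2-fold in 8 of 12 settings, with a lowest difference of 0.84. Idh1, Idh3a and Idh2, isocitrate dehydrogenase genes, differed by -0.54, -0.44 and -0.34. Glycogen genes had a median of -0.15 over 15 genes, with Ppp1r3b, a glycogen-targeting phosphatase subunit gene, 2.40-fold higher, Ppp1r3d 1.74-fold higher, Gbe1 1.71-fold lower and Phka1 at -0.43. Ppp1r3d was dim, at -3.25 and -2.45, and differed by 0.47 with normexp, under 1.5-fold. The medians of these 3 lists were negative under every setting tried. Upstream regulators had a median of 0.05 over 26 genes with 3 at least 1.5-fold higher, 11.5% against 12.1% of all genes, namely the transcription factor gene Stat3, 1.75-fold, the kinase gene Tbk1, 1.56-fold, and Arrdc4, a glucose-responsive gene, 1.54-fold; Ikbke followed at 0.58. With median scaling Tbk1 and Arrdc4 were at 0.47 and 0.45, under 1.5-fold. Arrdc4 was at 0.55 with normexp and at 1.74 by its dimmest probe. Over all 175 measured genes of these lists, 3 passed 2-fold upward, 1.71% against 4.57% of all genes, and 2 downward, 1.14% against 1.78%, namely Nos2, Ppp1r3b and Acod1, and Car12 and Angptl4.

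**Figure D5:**
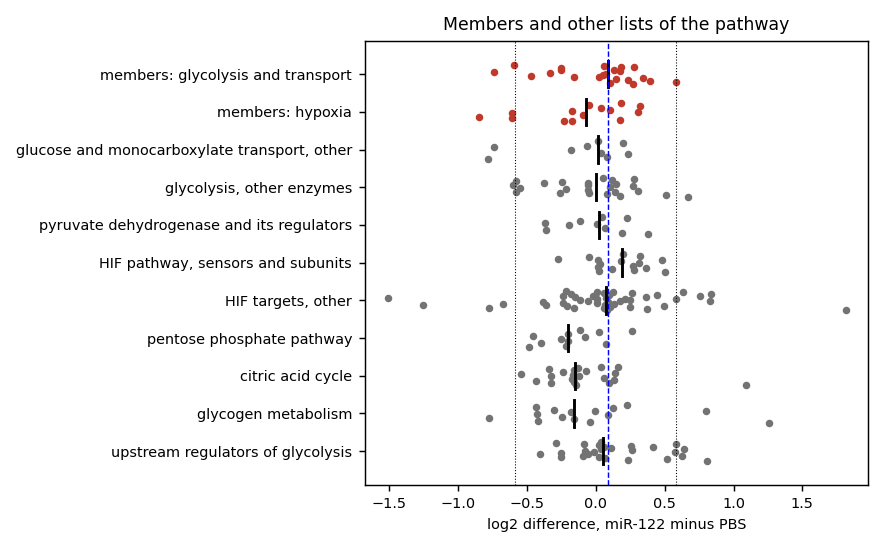
Log2 difference, miR-122 minus PBS, of each gene well above background on both arrays, for the members in red and for the other lists in grey; black bars are list medians, the blue dashed line is the median of all genes and dotted lines mark 1.5-fold. The members lie between -0.85 and 0.58, while Nos2, Car12, Angptl4, Ppp1r3b and Acod1 lie farther out in the other lists.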

How the data were processed

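RNA of 2 RAW246.1 cultures, PBS and miR-122, was measured on 1 array each. Per the file headers, the spot intensities come from Agilent Feature Extraction 11.0.1.1, which subtracts background and detrends each array on its own. A second deposited table has log2 values, whose normalization is not stated in these sources. Its columns correlated across probes at 0.997 with the scanner values of their own array. Both columns had the same median, 5.17. With these values as with quantile normalization, 528 genes were 2-fold higher, 354 were 2-fold lower and the members' median was -0.10. The authors' values and quantile normalization are therefore not 2 separate checks.

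Control and flagged spots were left out, log2 signals were averaged over the spots of a probe, and the 75th percentile over 39429 probes was subtracted on each array. Unscaled, the 75th percentiles differed by -0.28. No spot was saturated. Accessions were matched to RefSeq symbols (GRCm38.p6), naming 27234 probes; a gene took its brightest probe well above background on at least 1 array. A single array per group allows no test, so genes past 2-fold and 1.5-fold were counted. The members were known from earlier results to lie within 2-fold, and the size of 1.5-fold was added to describe them. The members and lists were chosen with earlier results of these data known. Besides members, up to 4 genes per list with the largest differences are named. Counting was tested on simulated data. R 4.3.3, limma 3.58.1, Python 3.11.15, numpy 2.4.6 and pandas 2.3.3 were used.

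Alternatives were other scalings (the median, quantile normalization, loess with a span of 0.3, and the 75th percentile of probes well above background on both arrays), normexp with an offset of 50 on the median spot and background intensities, the authors' values, 2 other filters on dim signal, averaging a gene's probes, the dimmest probe, and flagged spots kept.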

Additional observations from a re-analysis of the deposited data

How the results depend on the processing

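The alternatives were run beside the reported setting. No member passed 2-fold in any of them except 1, Egln3, with median scaling. The 5 members at least 1.5-fold lower became 2 with normexp, Egln3 and P4ha2, and 0 members at least 1.5-fold higher became 1, Hk3, with loess. The median difference of the members, 0.06, was -0.12 with median scaling, -0.10 with quantile normalization and with the authors' values, and -0.042 with loess. All genes at least 1.5-fold lower were 10.6% with median scaling and 3.87% with normexp, and those higher 7.52% and 5.97%. At 2-fold, 687 genes were higher and 268 lower, against 471 and 456 with median scaling. Over the other pathway lists, 5 genes past 2-fold became 4 with median scaling, quantile normalization, loess, normexp, the authors' values and brighter probes, and 9 with the dimmest probe of each gene, where Slc16a6 reversed to 0.057. The cause of these shifts was not tested. The number of arrays limits every value. No paired analysis was possible because each group held 1 array.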
